A study of Homo sapiens with 16 samples.

Results

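The interferon-stimulated effector genes are the genes whose products carry out the antiviral, growth-restraining and regulatory work that follows an interferon signal. They were taken as the rows of the read count table whose symbol stands on a list of 59 such genes, and all 59 were found among 23354 genes in the table. Of these, 57 had enough reads to be tested among 14215 tested genes. TRIM34 and IFITM3 did not: no library held more than 1 read of TRIM34 or more than 9 reads of IFITM3. The filter asks for reads in as few as 2 libraries, so a member read only after treatment would pass, and counts over the tested members are descriptions.

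The measurements are RNA sequencing read counts from 16 libraries, 2 in each of 8 groups. The cells were 2 human multiple myeloma cell lines, MM1S, which responds to glucocorticoids, and MM1R, its dexamethasone-resistant counterpart. Cells of each line received vehicle (Veh), TAK-981 at 0.1 µM (TAK), dexamethasone at 1 µM (Dex) or TAK-981 and dexamethasone together at the same doses (combo) for 48 h. TAK-981 inhibits the enzyme that activates SUMO, a small protein that is attached to other proteins, and dexamethasone is a glucocorticoid used against myeloma. Each line is a single cell line, so a difference between them is a difference between these lines and not between sensitive and resistant myeloma in general. Whether the duplicates came from separate cultures is not given in the sources used here, so p-values measure only the spread between these libraries.

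A type I interferon signal starts when interferon binds the receptor pair IFNAR1 and IFNAR2 and the kinases JAK1 and TYK2 activate transcription factors in the cytoplasm. These then bind the interferon-stimulated response element (ISRE) in the promoters of their target genes. The targets include proteins that sense or cut viral RNA (OAS, IFIT, PKR), GTPases that trap viral capsids (MX1, MX2), viperin (RSAD2), the ubiquitin-like modifier ISG15 with its conjugating enzymes, and membrane proteins that hold virions at the cell surface (BST2). In cultured cells they are read as the output of the pathway, and many also rise when cytosolic nucleic acid is sensed.

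Libraries held between 15707587 and 24796539 counts. All 7 plasma cell markers were tested and summed to between 2980 and 5320 CPM (counts per 1000000 counts, with library sizes scaled by the trimmed mean of M-values, TMM) in the 16 libraries. By contrast, 4 B cell markers summed to at most 0.557 CPM, 4 T cell markers to at most 5.76 CPM, 4 NK cell markers to at most 13.8 CPM, 4 fibroblast markers to at most 2.04 CPM and 5 myeloid markers to between 15.7 and 42 CPM, most of it CD68. CD3D and NKG7 had 0 counts in every library. Replicates differed most in the MM1S TAK and MM1S Dex groups, with a chi-square of 21.2 and 19.2 per degree of freedom against 2.08 to 9.14 in the other groups. In these bulk samples fewer cells of a kind and less RNA per cell cannot be told apart.

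TAK raised nearly every member in both lines. In MM1S, 54 of 57 tested members were higher and 0 lower than in Veh, and in MM1R 55 were higher and 0 lower (edgeR quasi-likelihood test, Benjamini-Hochberg adjusted p under 0.05 over all tested genes). Over all tested genes 25.2% were called higher and 23.7% lower in MM1S, and 25.8% higher and 27.6% lower in MM1R. The median log2 fold change over the members was 1.29 in MM1S (quartiles 0.66 and 3.05) and 1.60 in MM1R (quartiles 0.93 and 4.04), against 0.037 and 0.0043 over all tested genes. A log2 fold change of 1 or more was reached by 32 called members in MM1S and 38 in MM1R. The same 53 members were called higher in both lines, and the calls of BST2 in MM1S and of IFITM2 and LY6E in MM1R were not matched in the other line, but the line by TAK difference was not called for any of these 3. PNPT1 was called in neither line. In at least 1 of the 22 other settings and left-out libraries, ISG20, TRIM14, BST2 and IFI27 lost their call in MM1S, and IFITM2 and SHISA5 lost theirs in MM1R. Without MM1S TAK replicate 2, BST2 fell to 0.12 and ISG20 to 0.23 in MM1S. In MM1R BST2 was called higher in 7 of the 22, and PNPT1 when only the groups compared were fitted (0.10, adjusted p = 0.039).

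As a share of all counts, the 59 members took 0.395% and 0.394% of the MM1S Veh libraries and 0.714% and 0.661% of the MM1S TAK libraries. In MM1R they took 0.42% and 0.418% with Veh and 0.956% and 0.892% with TAK. The Veh and TAK libraries did not overlap in this share in either line. Other measures moved with TAK as well. MALAT1, a nuclear noncoding RNA, took between 2.85% and 3.01% of counts in the 4 Veh libraries and between 5.22% and 6.17% in the 4 TAK libraries. The 5 myeloid markers summed to between 18.8 and 20.6 CPM in MM1S Veh, 37.5 and 39.5 CPM in MM1S TAK, 17.4 and 18.6 CPM in MM1R Veh and 39 and 40.2 CPM in MM1R TAK. Both tested myeloid markers rose, CD68 by 0.91 and 1.13 and ITGAM by 1.60 and 1.51 on the log2 scale, while LYZ had at most 2 reads, CSF1R at most 7 and CD14 at most 11 in any library. Other markers moved both ways. Of the 7 plasma cell markers, 3 were called higher and 2 lower in MM1S and 2 higher and 2 lower in MM1R, beside the shares of all tested genes given above. Among these were CD38 (0.75 and 1.15) and IRF4 (-0.60 and -0.66). The T cell marker CD3E was at -0.67 and -0.96 and the NK cell marker NCAM1 at -1.24 and -0.78. The part of all these shifts in the members' rise was not tested.

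**Figure D1:**
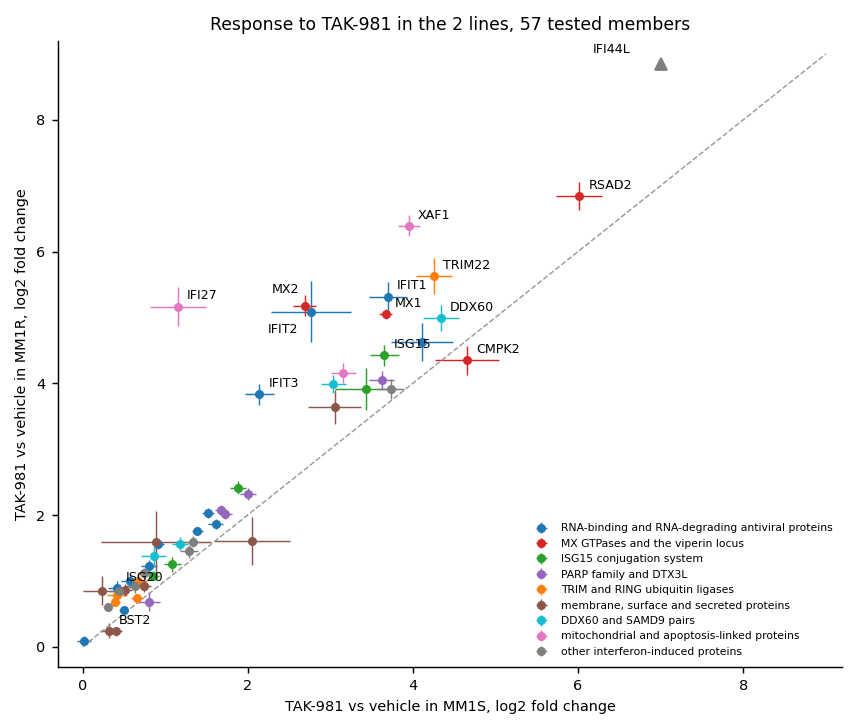
Log2 fold change of TAK against Veh in MM1S (x axis) and MM1R (y axis) for the 57 tested members, coloured by role, with bars for the standard errors and a dashed line at equal values. Most points lie above the line, RSAD2, XAF1 and TRIM22 are far up in both lines and IFI27 is the point farthest above the line, while the triangle for IFI44L in MM1R is a lower bound, since its MM1R Veh libraries held 0 counts.

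Among the proteins that bind or cut RNA, 12 of 13 members rose in each line. ADAR, which edits adenosines in double-stranded RNA, had the highest CPM of the group but moved little: 896 and 896 CPM in the MM1S Veh libraries, 1275 and 1256 with TAK, 1118 and 1160 in MM1R Veh and 1707 and 1656 with TAK. On the log2 scale the changes were 0.50 ± 0.056 (SE, adjusted p = 7.12e-07) and 0.56 ± 0.056 (SE, adjusted p = 1.69e-07). IFIT1, which binds RNA with a viral-type cap, went from 3.1 and 2.56 to 40.8 and 32.9 CPM in MM1S. In MM1R it went from 2.36 and 2.14 to 97.5 and 82.3 CPM. Its log2 fold changes were 3.69 ± 0.23 (SE, adjusted p = 5.7e-09) and 5.32 ± 0.22 (SE, adjusted p = 9.54e-11), and no TAK library overlapped a Veh library. The 2′-5′-oligoadenylate synthetases OAS1, OAS2 and OAS3, which make the activator of RNase L, rose by 1.52, 1.39 and 1.61 on the log2 scale in MM1S and by 2.03, 1.76 and 1.86 in MM1R. OASL, the catalytically inactive relative, had only 6 reads in the MM1S Veh libraries together and 102 with TAK, a ratio of 17.9 (95% counting interval 7.95 to 50). The counting intervals given here cover counting error only.

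ISG20, a 3′ exonuclease, was among the weakest members for TAK in MM1S, with 55.6 and 61.6 CPM in Veh and 68.9 and 87.5 CPM with TAK, and in MM1R it went from 39.4 and 39.7 to 73.7 and 72.7 CPM. The log2 fold changes were 0.42 ± 0.10 (SE, adjusted p = 0.00313) and 0.89 ± 0.11 (SE, adjusted p = 2.51e-06). ZNFX1, a helicase that recognises viral RNA, went from 38.4 and 37.1 to 73.2 and 69.1 CPM in MM1S. The MM1R libraries moved from 25.7 and 24.2 to 75.2 and 72.2 CPM. The fitted log2 fold changes were 0.91 ± 0.069 (SE, adjusted p = 3.43e-09) and 1.56 ± 0.071 (SE, adjusted p = 4.57e-12). It overlaps ZFAS1 on the other strand, and the strand setting of the counting is not given in the sources used here, so reads of the pair cannot be told apart. EIF2AK2, the kinase PKR that halts translation on double-stranded RNA, rose by 0.57 and 0.99. PNPT1, a mitochondrial RNA exonuclease, had log2 fold changes of 0.021 ± 0.082 (SE, adjusted p = 0.852) in MM1S and 0.09 ± 0.08 (SE, adjusted p = 0.36) in MM1R, and its MM1S Veh libraries at 71.9 and 64.9 CPM overlapped the TAK libraries at 75.9 and 62.9 CPM.

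All 4 members of the MX and viperin group rose in both lines, with the highest group median in MM1S, 4.16 on the log2 scale. MX1 was read at 22.5 and 22.5 CPM in MM1S Veh, 292 and 281 CPM in MM1S TAK, 14.5 and 14.1 CPM in MM1R Veh and 502 and 443 CPM in MM1R TAK. This gave log2 fold changes of 3.67 ± 0.073 (SE, adjusted p = 1.04e-16) and 5.05 ± 0.078 (SE, adjusted p = 9.31e-19). Its level in MM1R was lower than in MM1S with Veh and higher with TAK. MX2, the related GTPase next to it on chromosome 21, did the same, from 7.24 and 6.51 to 48.8 and 40 CPM in MM1S. MM1R values went from 2.44 and 2.43 to 100.3 and 76.4 CPM. RSAD2 encodes viperin, which makes a chain-terminating nucleotide, and CMPK2, its neighbour on the opposite strand of chromosome 2, encodes a nucleotide kinase. RSAD2 rose from 0.094 and 0.308 to 13.6 and 12.6 CPM in MM1S. In MM1R the rise was from 0.331 and 0.247 to 38.1 and 29.9 CPM. Log2 fold changes came to 6.01 ± 0.28 (SE, adjusted p = 6.79e-12) and 6.85 ± 0.22 (SE, adjusted p = 3.96e-14). The MM1S value rests on 8 Veh reads, so the ratio of 66.7 has a 95% counting interval of 33.6 to 155. CMPK2 rose from 0.094 and 0.205 to 3.73 and 3.96 CPM in MM1S. In MM1R it went from 0.579 and 0.66 to 14.6 and 10.9 CPM.

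The ISG15 conjugation system rose as a whole, 6 of 6 members in each line. ISG15 itself went from 1.32 and 1.59 to 16.5 and 20.1 CPM in MM1S. The MM1R libraries moved from 1.65 and 1.4 to 35.5 and 30.3 CPM. On the log2 scale the changes were 3.65 ± 0.18 (SE, adjusted p = 1.07e-11) and 4.42 ± 0.16 (SE, adjusted p = 1.64e-13). Its activating enzyme UBA7 rose by 1.09 and 1.25 and its conjugating enzyme UBE2L6 by 0.65 and 0.97. HERC5, the ligase, had the highest mean CPM of the system over all groups, though with Dex UBE2L6 stood above it in MM1S (72.9 and 76.1 against 51.3 and 52 CPM) and had the higher mean in MM1R. HERC5 went from 71.8 and 69.4 to 127 and 129 CPM in MM1S. MM1R values went from 67.9 and 69.1 to 155 and 134 CPM. USP18, which removes ISG15 and restrains the interferon receptor, rose by 3.43 and 3.92, with the reservation that near-identical copies of the gene can split its reads.

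All 5 members of the PARP and DTX3L group rose in both lines. PARP14, a large mono-ADP-ribosyltransferase, went from 88.1 and 88.2 to 315 and 270.4 CPM in MM1S. In MM1R the rise was from 109.8 and 103 to 454 and 405 CPM. PARP9 and its partner, the ubiquitin ligase DTX3L, are transcribed head to head and overlap at their ends. PARP9 rose from 3.81 and 2.97 to 47.4 and 36.6 CPM in MM1S. In MM1R it went from 4.34 and 4.62 to 81.2 and 66.8 CPM. DTX3L went from 25.7 and 22.9 to 80.5 and 74.7 CPM in MM1S and from 27.9 and 26.8 to 118 and 112 CPM in MM1R. The log2 fold changes of PARP9 were 3.62 and 4.04 and those of DTX3L 1.68 and 2.07. PARP10 was the weakest of the group, at 54.2 and 58.1 and with TAK 81.6 and 114 CPM in MM1S and at 60.9 and 64.5 and with TAK 104 and 98 CPM in MM1R.

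Of the TRIM and RING ubiquitin ligases, all 6 tested members rose in both lines, and TRIM22 stood far above the rest. TRIM22, which restricts transcription of several viruses, went from 0.752 and 1.08 to 19.8 and 15.1 CPM in MM1S. The MM1R libraries moved from 0.165 and 0.371 to 14.4 and 12.8 CPM. The fitted log2 fold changes were 4.26 ± 0.22 (SE, adjusted p = 2.2e-11) and 5.63 ± 0.27 (SE, adjusted p = 1.36e-11). The span listed for TRIM5, its neighbour on the opposite strand, covers TRIM22. TRIM5 itself, a capsid-binding ligase, went from 15 and 15.9 to 24.2 and 25.1 CPM and from 10.7 and 9.57 to 20 and 20.5 CPM. TRIM25, the ligase for the RNA sensor RIG-I, went from 375 and 399.5 to 494 and 526 CPM in MM1S. MM1R values went from 402 and 397 to 652 and 631 CPM, a log2 fold change of 0.40 ± 0.055 (SE, adjusted p = 8.44e-06) and 0.68 ± 0.055 (SE, adjusted p = 1.02e-08). RNF213, a giant ubiquitin ligase with the highest CPM of the group, went from 505 and 532 to 849 and 894 CPM and from 610.2 and 621 to 1177 and 1163 CPM.

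Membrane, surface and secreted proteins responded least evenly, with 6 of 8 tested members called higher in MM1S and 7 of 8 in MM1R. BST2 (tetherin), which tethers budding virions, held the highest level per length of all members in Veh, 211 ± 3.8 RPKM (SD, n = 2) in MM1S and 189 ± 4.69 RPKM in MM1R. Its MM1S TAK libraries read 214 and 278 CPM against 194 and 199 CPM in Veh, a log2 fold change of 0.32 ± 0.11 (SE, adjusted p = 0.0266), and its MM1R TAK libraries 207 and 212 CPM against 174 and 179.8 CPM, 0.24 ± 0.11 (SE, adjusted p = 0.0821). SHISA5, a membrane protein of the endoplasmic reticulum, went from 93.8 and 98.5 to 125 and 129 CPM in MM1S. In MM1R the rise was from 116 and 115 to 139 and 133 CPM. IFITM1, which blocks virus entry at the cell surface, rose by 3.05 and 3.64 on the log2 scale, though its close relatives IFITM2 and IFITM3 can share reads with it. LGALS3BP, a secreted glycoprotein, rose by 2.05 and 1.60 from under 1 CPM.

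The helicase-like DDX60 and DDX60L and the growth-restraining SAMD9 and SAMD9L all rose in both lines. DDX60, which sits beside DDX60L on chromosome 4, went from 1.17 and 1.18 to 27.4 and 20.5 CPM in MM1S. In MM1R it went from 1.12 and 1.57 to 47.6 and 38.3 CPM. This gave log2 fold changes of 4.34 ± 0.22 (SE, adjusted p = 4.24e-11) and 4.99 ± 0.19 (SE, adjusted p = 1.76e-12). SAMD9L started from 213 and 196 CPM in MM1S Veh and 231 and 224 CPM in MM1R Veh and reached 523 and 403 CPM and 709 and 639 CPM with TAK. The gain of SAMD9L, 1.18 and 1.57, was smaller on the log2 scale than that of DDX60.

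XAF1, a pro-apoptotic partner of XIAP, rose from 6.48 and 6.66 to 115 and 88.6 CPM in MM1S. The MM1R libraries moved from 1.45 and 1.65 to 141 and 119.6 CPM. Its log2 fold changes were 3.95 ± 0.13 (SE, adjusted p = 3.31e-13) and 6.39 ± 0.16 (SE, adjusted p = 8.74e-15). Both MM1R libraries stood below both MM1S libraries with Veh and above them with TAK. The levels of the lines with TAK were not compared by a test. IFI6, a mitochondrial and endoplasmic reticulum protein that opposes apoptosis, rose by 3.16 and 4.15. IFI27, a small hydrophobic mitochondrial protein, went from 0.705 and 0.461 to 1.35 and 1.29 CPM in MM1S. MM1R values went from 0.248 and 0.124 to 7.3 and 6.45 CPM. In MM1R this was 9 Veh reads against 267 TAK reads, a ratio of 36.9 (95% counting interval 19.2 to 81.6), and in MM1S the log2 fold change was 1.16 ± 0.34 (SE, adjusted p = 0.0086).

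All 8 remaining members rose in both lines. IFI44L had 0 counts in both MM1R Veh libraries and 63.8 and 50.5 CPM in the TAK libraries, at least 461.7-fold higher against a floor of 3 counts per library, and went from 0.141 and 0.41 to 40.6 and 30.5 CPM in MM1S, or on the log2 scale 7.01 ± 0.29 (SE, adjusted p = 1.48e-11). IFI44, its neighbour on chromosome 1, went from 3.24 and 2.41 to 43.7 and 32 CPM in MM1S. In MM1R the rise was from 3.6 and 4 to 60.9 and 53.4 CPM. IFI16, a nuclear DNA sensor, went from 329 and 302 to 486 and 369 CPM in MM1S, where replicate 2 stood well below replicate 1, and from 332 and 327 to 614 and 567 CPM in MM1R. LAP3, an aminopeptidase, showed one of the smallest called changes, from 80.5 and 79.7 to 99.2 and 98.6 CPM and from 94.5 and 93.9 to 146 and 141 CPM. Log2 fold changes came to 0.30 ± 0.058 (SE, adjusted p = 0.00027) and 0.61 ± 0.057 (SE, adjusted p = 6.64e-08).

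**Figure D2:**
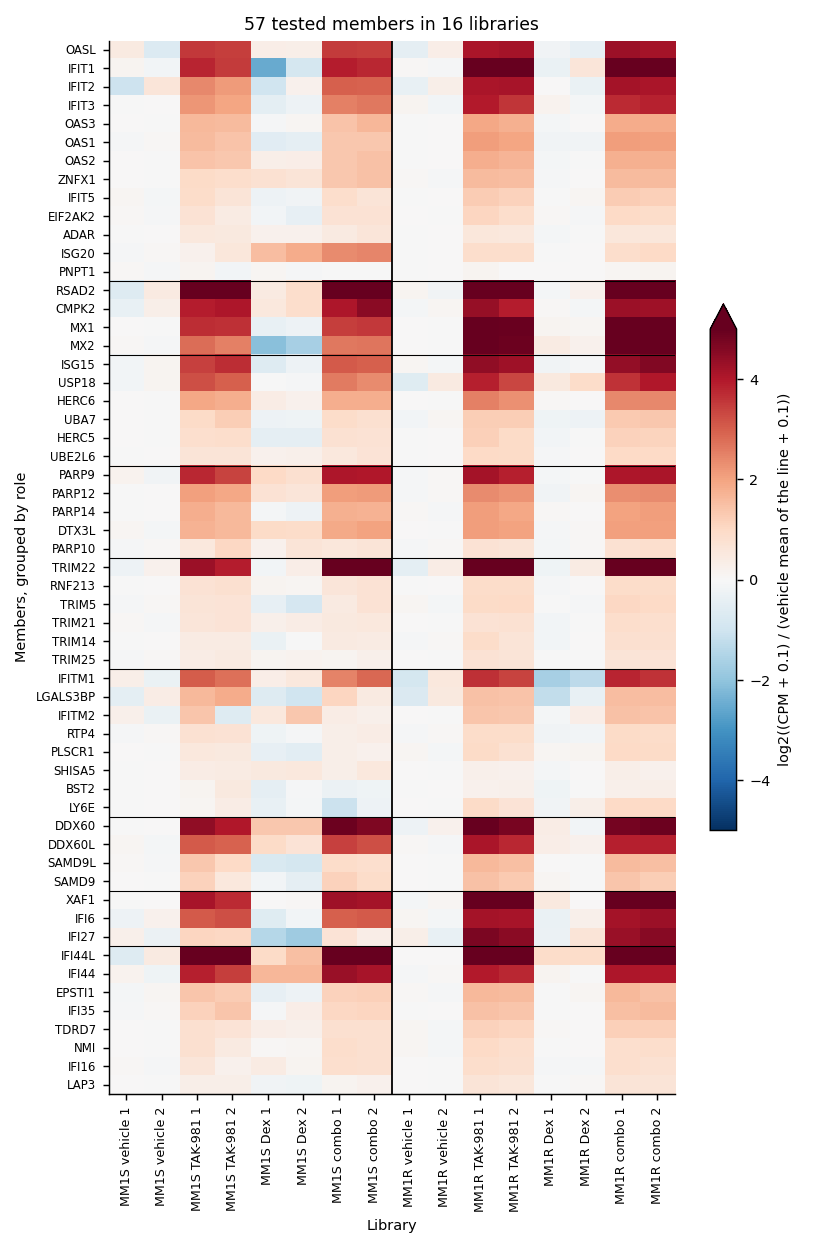
Heat map of the 57 tested members (rows, grouped by role) in the 16 libraries (columns), coloured by log2 of CPM plus 0.1 over the Veh mean of the same line plus 0.1, with colours ending at 5 either way. TAK and combo columns are red in both lines for most members. Exceptions include BST2 and LY6E, which lay below Veh in MM1S combo, and PNPT1, which is close to white. Dex columns are mixed in MM1S and close to white in MM1R for most members.

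The size of the response went with the level before treatment. Split into 3 sets by RPKM in MM1S Veh, the 19 lowest members (0.0351 to 1.24 RPKM) had a median log2 fold change of 4.63 in MM1R, the 19 in the middle (2.02 to 9.49 RPKM) 1.60 and the 19 highest (11.3 to 211 RPKM) 0.89. Across the 57 genes, the MM1R response and the MM1S Veh level had a Pearson r of -0.725 and a Spearman rho of -0.778, and the MM1S response and the MM1R Veh level -0.784 and -0.759. These describe genes, which are not independent replicates, and fold changes of low genes carry the most counting noise. The filter also keeps a member that is low in Veh more readily if treatment raises it, and TRIM34 and IFITM3, which failed it, are left out. The part of the filter in this relation was not tested. The responses in MM1S and MM1R, which share no library, correlated across genes with r = 0.92 and rho = 0.943. In these correlations the MM1R response of IFI44L entered at its fitted log2 fold change of 13.2, which rests on 0 Veh counts. Levels had 0.01 RPKM added before taking logs, which sets the MM1R Veh level of IFI44L. In the lists by level per length, BST2, ADAR and IFI16 were the highest members in Veh in both lines, and in MM1R TAK the order was ADAR at 238 ± 5.05 RPKM (SD, n = 2), BST2 at 224 ± 3.53, IFI16 at 178 ± 9.88, IFI6 at 151 ± 4.51 and MX1 at 132 ± 11.6. Each neighbouring pair in that order differed by more than its summed SDs.

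Promoter windows from RefSeq (GRCh38.p14, 250 bases before to 50 after each start site) were found for 48 of the 59 members and searched for the ISRE core GAAANNGAAA on either strand. It occurred in 35 of the 48 (72.9%), and in 1195 of 27305 genes with a window (4.38%). The gamma-activated site (GAS) core TTCNNNGAA, which reads the same on both strands, occurred in 12 of the 48 (25%) and in 2560 of the 27305 genes (9.38%). The motifs can overlap each other, some genes have several windows and count once if any window matches, and a match is a string of letters and not a measured site. Taking for each gene the window with most matches, 54 ISRE core matches were found, 31 of them starting within 100 bases before the start site, 19 farther before it and 4 at or after it. The stretches below come from members at both ends of the response and lie wholly before the start site, given 5′ to 3′ on the gene's strand, with the ISRE core matches in capitals (as the reverse complement where they lie on the other strand).
IFI44L: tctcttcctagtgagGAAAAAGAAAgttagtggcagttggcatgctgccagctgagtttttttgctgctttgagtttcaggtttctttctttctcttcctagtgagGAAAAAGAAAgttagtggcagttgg
RSAD2: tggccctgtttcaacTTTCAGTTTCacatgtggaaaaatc
IFIT1: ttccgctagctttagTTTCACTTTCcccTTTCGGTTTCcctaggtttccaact
IFIT3: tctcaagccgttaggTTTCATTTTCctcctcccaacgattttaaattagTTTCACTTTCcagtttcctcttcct
IFI27: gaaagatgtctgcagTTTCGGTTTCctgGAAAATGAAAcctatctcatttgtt
ISG15: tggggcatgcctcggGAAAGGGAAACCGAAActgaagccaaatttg
IFI6: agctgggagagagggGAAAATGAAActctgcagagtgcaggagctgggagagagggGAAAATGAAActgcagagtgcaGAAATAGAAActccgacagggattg
DDX60: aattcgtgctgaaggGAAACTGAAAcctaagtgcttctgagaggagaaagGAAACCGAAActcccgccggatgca
BST2: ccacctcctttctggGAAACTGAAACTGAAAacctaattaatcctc
XAF1: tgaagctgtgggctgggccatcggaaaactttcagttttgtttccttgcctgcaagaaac
PNPT1: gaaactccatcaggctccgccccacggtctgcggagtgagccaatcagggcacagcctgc

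On GRCh38.p14 these lie at IFIT1 chr10:89392492-89392544 (+), IFIT3 chr10:89327826-89327899 (+), ISG15 chr1:1013369-1013414 (+), RSAD2 chr2:6877617-6877656 (+), IFI44L chr1:78620269-78620399 (+), IFI27 chr14:94110613-94110665 (+), IFI6 chr1:27672261-27672363 (-), DDX60 chr4:168318781-168318855 (-), BST2 chr19:17405730-17405775 (-), PNPT1 chr2:55693845-55693904 (-) and XAF1 chr17:6755986-6756045 (+). In IFI44L the stretch repeats itself, so the same core occurs at -164 and -73 from the start site (0 being the start itself). BST2 carries 2 overlapping cores, as ISG15 does, and the log2 fold change of BST2 with TAK in MM1R was 0.24 and that of ISG15 4.42. XAF1 and PNPT1 hold no exact ISRE core in their windows and had log2 fold changes of 6.39 and 0.09 in MM1R. The search took exact matches only, and the XAF1 stretch holds tttcagtttt, which departs from the reverse complement of the core at its last base. Over the 46 tested members with a window, the median log2 fold change was 1.61 in MM1S and 1.86 in MM1R for the 33 with a match, and 0.75 and 1.12 for the 13 without, with wide overlap between them. TRIM34 and IFITM3 also hold a match but failed the filter, so the 33 leave them out. A member with few reads passes that filter more readily if treatment raises it, so these medians are descriptions.

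**Figure D3:**
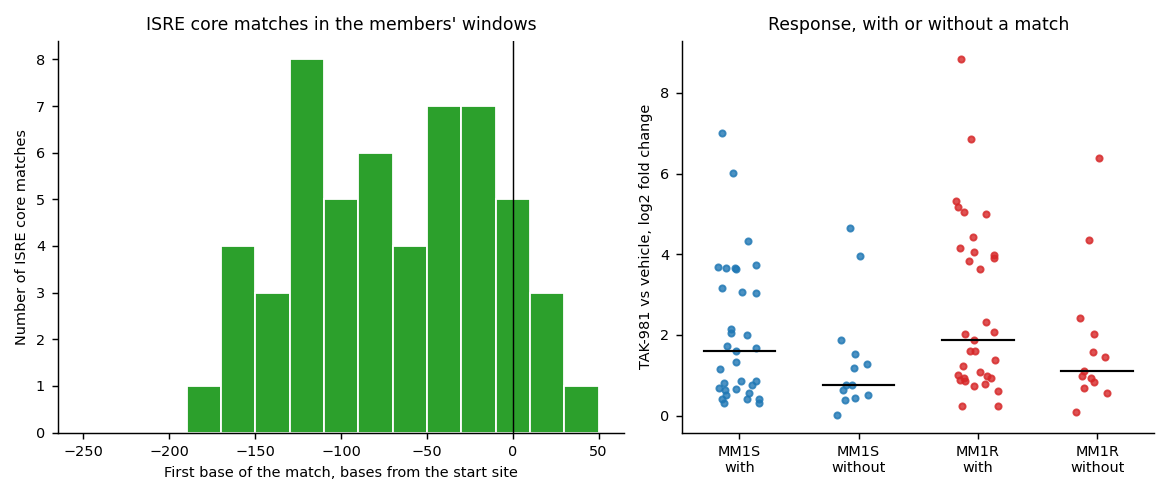
Left, positions of the 54 ISRE core matches in the members' windows, in bases from the start site (bars of 20 bases). Right, log2 fold change of TAK against Veh for the 33 tested members with a match and the 13 without (points; lines are medians, IFI44L in MM1R at its lower bound), in MM1S (blue) and MM1R (red): the medians are higher with a match and the points overlap widely.

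The rest of the pathway was read from lists of its parts. All 21 interferon genes in the table failed the filter, with at most 4 reads in any library and 12 of them at 0 in all 16 libraries. IRF7, the amplifier of interferon transcription, rose with TAK by 1.76 and 1.76 on the log2 scale in MM1S and MM1R, and STAT2 by 0.89 and 0.94. IRF9 is listed at 0 counts in every library, so its level was not measured here. Among the 9 receptors and kinases, 4 were higher and 2 lower in MM1S and 6 higher and 1 lower in MM1R. Beside this and the next counts, 25.2% of all tested genes were called higher and 23.7% lower in MM1S. In MM1R these shares were 25.8% and 27.6%. IFNAR1 rose by 0.36 and 0.47, and JAK2 was lower in MM1S (-0.33 ± 0.075 SE, adjusted p = 0.00115) and higher in MM1R (0.30 ± 0.074 SE, adjusted p = 0.00212). Of 9 brakes on the pathway 6 rose in each line, with SOCS1 at 0.91 ± 0.18 (SE, adjusted p = 0.000353) and 1.09 ± 0.18 (SE, adjusted p = 4.89e-05). Of 14 RNA and DNA sensors and their adaptors, 7 rose and 1 fell in MM1S and 8 rose in MM1R, among them DDX58 (RIG-I) at 1.47 ± 0.099 (SE, adjusted p = 7.81e-10) and 2.26 ± 0.1 (SE, adjusted p = 3.15e-12), TLR3 at 1.60 ± 0.27 (SE, adjusted p = 7.03e-05) and 2.26 ± 0.24 (SE, adjusted p = 3.74e-07), and DHX58 at 1.64 ± 0.17 (SE, adjusted p = 3.41e-07) and 2.41 ± 0.17 (SE, adjusted p = 1.4e-09). TLR3 had Veh means of only 1.06 CPM in MM1S and 1.01 CPM in MM1R. IFIH1 rose by 1.074 and 1.325 and ZBP1 by 0.64 and 0.88, with smaller adjusted p in MM1R than TLR3 and DHX58 but smaller changes.

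Most members responded more in MM1R. Of the 57 tested members, 52 had the larger log2 fold change in MM1R, and the difference of the responses (line by TAK interaction) had a median of 0.40 against -0.0034 over all tested genes. It was called for 16 members, all larger in MM1R, 28.1% of those tested, while 3.19% of all genes were called larger in MM1R and 0.978% smaller. The 5 called differences with the smallest adjusted p were those of IFI27 (4.01 ± 0.54 SE, adjusted p = 0.000406), MX2 (2.49 ± 0.24 SE, adjusted p = 2.05e-05), XAF1 (2.44 ± 0.24 SE, adjusted p = 3.23e-05), MX1 (1.38 ± 0.10 SE, adjusted p = 4.03e-07) and ZNFX1 (0.65 ± 0.098 SE, adjusted p = 0.000957). DESeq2 gave no adjusted p for IFI27, while IFIT3, MX1, MX2, XAF1 and ZNFX1 were called in the fit and in all 22 other settings and left-out libraries. Other calls changed with single libraries: without MM1R TAK replicate 1 the count of 16 fell to 6, without MM1S Veh replicate 2 or either MM1R Veh library to 7, without MM1S Veh replicate 1 to 8, and without MM1S TAK replicate 1 it rose to 27.

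Within TAK groups replicate 1 was the higher library for 40 of the 57 members in MM1S and for 51 of 57 in MM1R, with median log2 differences of 0.11 and 0.13, while in the Veh groups 28 of 57 were higher in replicate 1 in each line. The part of this in the difference between lines was not tested.

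**Figure D4:**
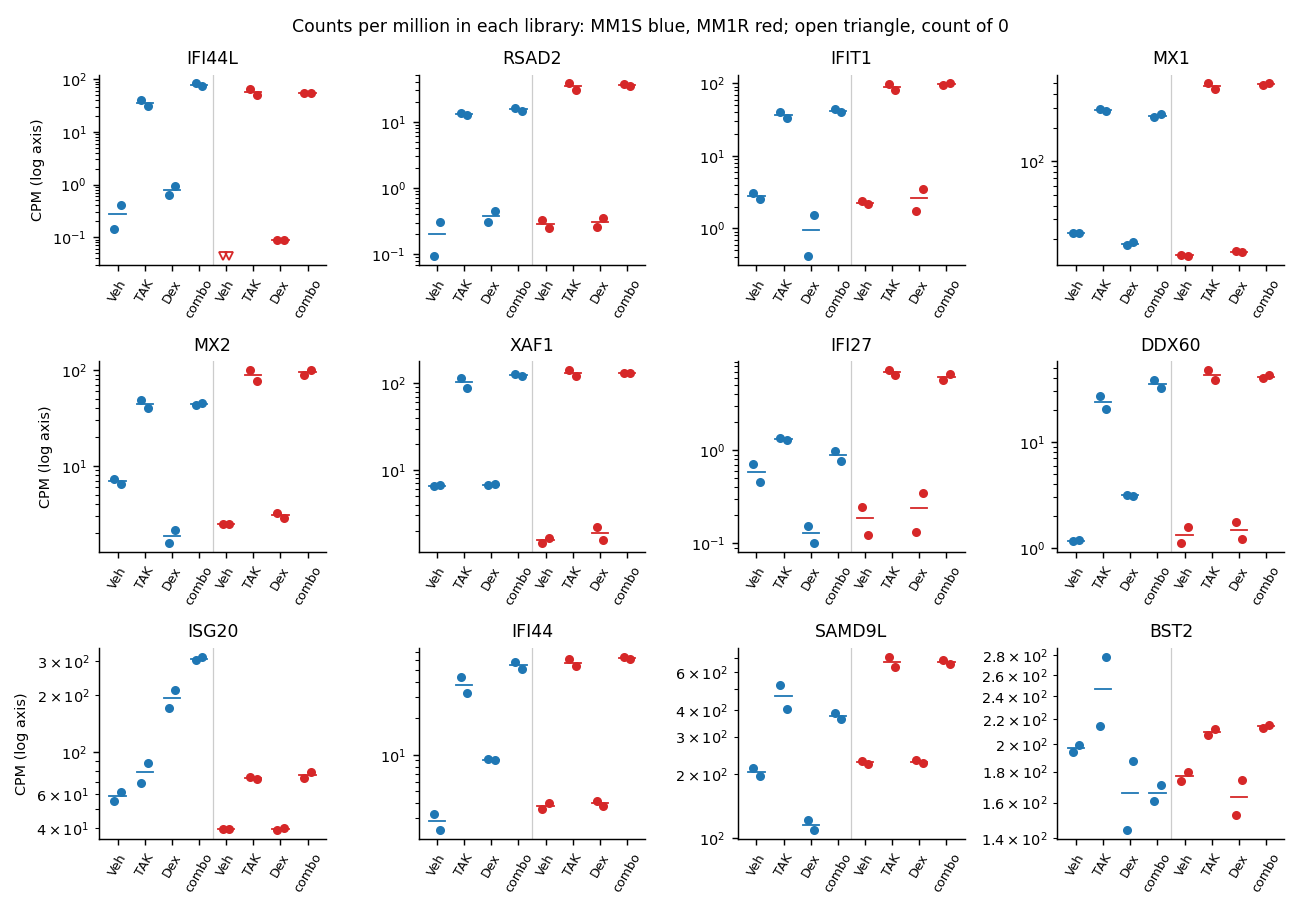
CPM (log axis, scaled separately for each gene) of 12 members in the 16 libraries, MM1S in blue and MM1R in red, with a line at the group mean and open triangles for counts of 0. TAK and combo libraries lie above Veh for 11 genes in both lines, with BST2 in MM1S as the exception for combo, and MX1, MX2 and XAF1 start lower in MM1R than in MM1S.

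Before treatment the members differed between the lines no more often than other genes. In Veh, 12 members were higher and 12 lower in MM1R than in MM1S, 21.1% each way, against 25.6% and 22.6% of all genes. Among those lower in MM1R were XAF1 (-2.08 ± 0.22 SE, adjusted p = 8.4e-07), TRIM22 (-1.74 ± 0.49 SE, adjusted p = 0.00683), MX2 (-1.50 ± 0.21 SE, adjusted p = 1.75e-05), UBA7 (-1.11 ± 0.12 SE, adjusted p = 4.63e-07) and MX1 (-0.66 ± 0.08 SE, adjusted p = 2.7e-06). Among those higher in MM1R were CMPK2 (2.03 ± 0.56 SE, adjusted p = 0.00626), OAS3 (0.94 ± 0.093 SE, adjusted p = 2.21e-07) and EPSTI1 (0.50 ± 0.093 SE, adjusted p = 0.000243), and IFI44L had 0 counts in both MM1R Veh libraries against 0.141 and 0.41 CPM in MM1S. CMPK2 lost its call without MM1S Veh replicate 1 (1.57), and TRIM22 lost its call without MM1S Veh replicate 2 (-1.47) or MM1R Veh replicate 1 (-1.28). These Veh libraries are also part of the line by TAK comparison.

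Dex alone moved the members in both directions in MM1S. Against Veh, 18 members were higher and 12 lower, 31.6% and 21.1% of those tested, while 20.8% of all genes were higher and 21.5% lower, and the members' median log2 fold change was 0.049. Among called members the largest increases were in ISG20 (171 and 212 CPM with Dex, 1.71 ± 0.10 SE, adjusted p = 7.34e-10), IFI44 (9.17 and 9.03 CPM, 1.68 ± 0.20 SE, adjusted p = 1.96e-06), DDX60 (3.16 and 3.13 CPM, 1.41 ± 0.31 SE, adjusted p = 0.00132), DTX3L (46.9 and 45.3 CPM, 0.92 ± 0.078 SE, adjusted p = 2.07e-08) and PARP9 (6.94 and 5.95 CPM, 0.92 ± 0.19 SE, adjusted p = 0.000854). PARP12 and PARP10 rose too, so that 4 of the 5 members of the PARP and DTX3L group were higher and 0 lower. PARP10 lost its call without Veh replicate 1 (0.41) or Dex replicate 2 (0.22). Beside IFI27, the largest called decreases were in MX2 (1.55 and 2.12 CPM, -1.90 ± 0.23 SE, adjusted p = 3.77e-06), IFIT1 (0.415 and 1.51 CPM, -1.54 ± 0.43 SE, adjusted p = 0.0101), SAMD9L (122 and 109.7 CPM, -0.82 ± 0.097 SE, adjusted p = 3.22e-06) and TRIM5 (11.5 and 8.57 CPM, -0.62 ± 0.12 SE, adjusted p = 0.000455). IFI27 was lower at 0.155 and 0.101 CPM, which is 5 reads against 24 in Veh, a ratio of 0.217 (95% counting interval 0.0647 to 0.581), and its call was lost without Veh replicate 1 (-1.80). The IFIT1 value turned on single libraries: it was -0.91 without Dex replicate 1 and -1.40 without Veh replicate 1, both no longer called, and -2.77 without Dex replicate 2. DDX60 and SAMD9L moved apart with Dex, while the Dex and Veh libraries did not overlap for either.

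**Figure D5:**
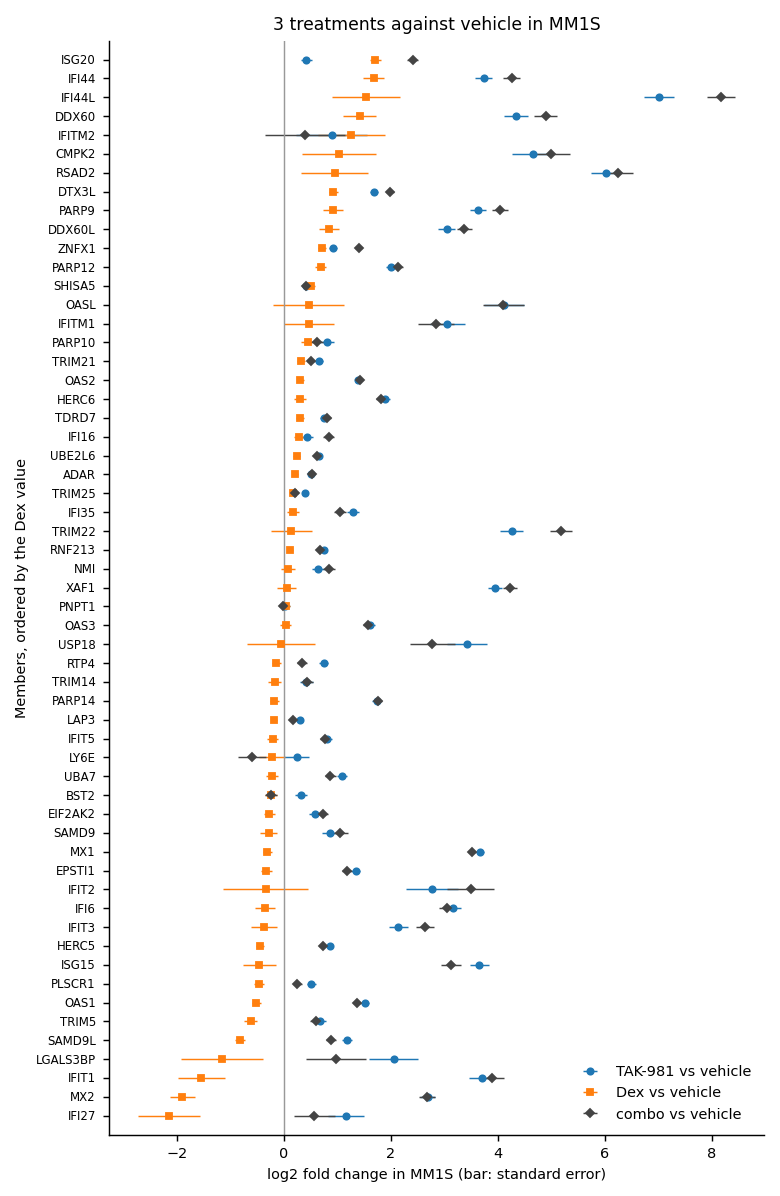
Log2 fold change against Veh in MM1S for TAK (circles), Dex (squares) and combo (diamonds) for the 57 tested members, ordered by the Dex value, with bars for the standard errors. TAK values lie right of 0 throughout, Dex values run from -2.15 (IFI27) to 1.71 (ISG20), and combo values stay close to the TAK values for most members, ISG20 being the clearest exception.

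In MM1R Dex alone called 0 members and 0 genes (0% higher and 0% lower by the edgeR quasi-likelihood test), with 2 members and 395 genes at an unadjusted p under 0.05. MX2, for instance, read 3.23 and 2.84 CPM with Dex against 2.44 and 2.43 CPM in Veh, and ISG20 39.1 and 39.9 against 39.4 and 39.7 CPM. The difference between the lines in the Dex response was called for 23 members, 10 higher and 13 lower in MM1R, 17.5% and 22.8%, against 15% and 13.1% of all genes. Without MM1R Veh replicate 2 the count of 23 fell to 14. The differences were -1.71 ± 0.15 (SE, adjusted p = 1.97e-07) for ISG20, -1.60 ± 0.29 (SE, adjusted p = 0.000371) for IFI44, 2.22 ± 0.34 (SE, adjusted p = 8.72e-05) for MX2 and 0.83 ± 0.14 (SE, adjusted p = 0.000197) for SAMD9L. The absence of calls in MM1R was examined with DESeq2 as well, which also called 0 members.

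The combination kept most members high. Against Veh, combo raised 51 of 57 members in MM1S and 55 in MM1R with 0 lower in either. In MM1S 6 members were not called, PNPT1, IFITM2, LGALS3BP, IFI27, BST2 and LY6E, of which LGALS3BP, IFI27 and BST2 were called higher with TAK alone. BST2 read 161 and 171 CPM in combo against 194 and 199 CPM in Veh, and LY6E 1.11 and 2.09 against 2.44 and 2.51 CPM. Both lay below Veh, and of the 22 other settings and left-out libraries BST2 was called lower in 8 and LY6E in 10, including DESeq2 for BST2 (-0.26, adjusted p = 0.045) and RLE factors for LY6E (-0.62, adjusted p = 0.0496). Of all tested genes, 30.8% rose and 29.5% fell in MM1S under combo, and in MM1R 24.8% rose and 26.7% fell. Against Dex, combo raised 50 members in MM1S and 56 in MM1R with 0 lower. Over the whole table this contrast called 22.2% up and 25.4% down in MM1S. In MM1R it called 23.1% up and 25.3% down. The median log2 fold change of combo against Veh was 1.18 in MM1S and 1.68 in MM1R, comparisons that share their Veh libraries with the TAK comparisons above.

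Adding Dex to TAK in MM1S called members about as often as other genes, and in MM1R it called 0 members. In MM1S, combo against TAK called 12 members higher and 7 lower, 21.1% and 12.3% of those tested, against 14.5% and 20.6% of all genes. In both directions together this was 33.3% of members against 35.1% of all genes, and the median log2 fold change was -0.031 over the members and -0.019 over all genes. Among the higher were ISG20, at 303 and 316 CPM in combo against 68.9 and 87.5 CPM with TAK (1.99 ± 0.10 SE, adjusted p = 1.13e-10), IFI44L at 84 and 74.1 against 40.6 and 30.5 CPM (1.15 ± 0.13 SE, adjusted p = 3.54e-06) and TRIM22 at 34.8 and 31.8 against 19.8 and 15.1 CPM (0.93 ± 0.13 SE, adjusted p = 1.57e-05). Among the lower were LY6E (-0.84 ± 0.26 SE, adjusted p = 0.0156), a membrane protein, BST2 at 161 and 171 against 214 and 278 CPM (-0.57 ± 0.11 SE, adjusted p = 0.00104), ISG15 at 13 and 12.3 against 16.5 and 20.1 CPM (-0.53 ± 0.13 SE, adjusted p = 0.00286) and RTP4, a transport protein (-0.41 ± 0.083 SE, adjusted p = 0.000781). Of the 19 calls, 10 held in all 22 other settings and left-out libraries, those of ISG20, IFI44L, TRIM22, BST2, ISG15 and RTP4 among them. LY6E lost its call without TAK replicate 2 (-0.70) and without combo replicate 1 (-0.48), and BST2 was at -0.36 without TAK replicate 2. In MM1R combo against TAK called 0 members and 0 genes by the edgeR quasi-likelihood test (0% higher, 0% lower), and 0 members and 214 genes had an unadjusted p under 0.05. DESeq2 called 0 members there as well, and all 57 tested members lay between -0.16 and 0.21 on the log2 scale. Whether the lines differ in what Dex adds to TAK was not tested.

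MX2 and IFIT1, which Dex alone lowered in MM1S, stood near their TAK level in combo. MX2 read 43.1 and 45 CPM in combo against 48.8 and 40 CPM with TAK (-0.01 ± 0.12 SE, adjusted p = 0.958), and IFIT1 read 44 and 40.4 against 40.8 and 32.9 CPM (0.19 ± 0.16 SE, adjusted p = 0.393). The departure from adding the separate log2 changes (TAK by Dex interaction) was 1.89 ± 0.26 (SE, adjusted p = 0.000139) for MX2 and 1.74 ± 0.46 (SE, adjusted p = 0.0222) for IFIT1, and also above 0 for TRIM5 (0.55 ± 0.16 SE, adjusted p = 0.0318) and SAMD9L (0.52 ± 0.13 SE, adjusted p = 0.0166), although SAMD9L stayed lower in combo, at 388 and 364 CPM against 523 and 403 CPM (-0.30 ± 0.094 SE, adjusted p = 0.0191). This lower value was -0.10 without TAK replicate 1 and -0.25 without combo replicate 2, not called in either, and its call was also lost by library size alone and with only the groups compared. The interaction of IFIT1 ran from 1.10 without Dex replicate 1 to 2.96 without Dex replicate 2 and was not called without Dex replicate 1, Veh replicate 1 (1.59) or TAK replicate 2 (1.59), nor with the replicate block (adjusted p = 0.0573). That of TRIM5 was not called without either Veh library (0.59 and 0.51), Dex replicate 2 (0.35) or combo replicate 2 (0.41), and that of SAMD9L not without Veh replicate 1 (0.46), Dex replicate 2 (0.45) or combo replicate 1 (0.47). IFI44 (-1.15 ± 0.23 SE, adjusted p = 0.00287), DTX3L (-0.63 ± 0.10 SE, adjusted p = 0.000597), SHISA5 (-0.49 ± 0.098 SE, adjusted p = 0.00244) and TRIM25 (-0.37 ± 0.078 SE, adjusted p = 0.00362), each higher with Dex alone, rose less in combo than the separate changes would add to. SHISA5 read 134 and 138 CPM with Dex and 119 and 137 CPM in combo, and TRIM25 read 431 and 443 CPM with Dex and 430.1 and 460.2 CPM in combo.

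In all, the interaction was called for 7 members above 0 and 9 below in MM1S, 12.3% and 15.8%, against 5.47% and 9.48% of all genes, and for 0 members in MM1R (0% and 0% of all genes by the edgeR quasi-likelihood test, 1 member and 400 genes at an unadjusted p under 0.05, 0 members by DESeq2). The MM1S count of 16 was 6 without Veh replicate 1, 9 without Veh replicate 2, 9 without Dex replicate 2, 9 without combo replicate 1 and 7 when only the 4 groups compared were fitted. MX2, DTX3L, TRIM21, SHISA5 and IFI44 were called in all 22 other settings and left-out libraries.

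Several members lie side by side. Of the members, 28 lie within 200 kb of another, in 17 adjacent pairs on hg19. The table places IFI44L at chr1:79086088-79111830 (+), RSAD2 at chr2:7017796-7038363 (+), DDX60 at chr4:169137442-169239958 (-), SAMD9L at chr7:92759368-92777680 (-), IFIT1 at chr10:91152303-91166244 (+), ISG20 at chr15:89178904-89198879 (+), XAF1 at chr17:6658794-6678964 (+), BST2 at chr19:17513755-17516384 (-), MX2 at chr21:42733950-42780869 (+) and MX1 at chr21:42792520-42831141 (+), the spans taking in exons and introns. DDX60 and DDX60L both rose with TAK and with Dex in MM1S (1.41 and 0.84). SAMD9L fell with Dex by 0.82, and SAMD9 beside it had a log2 fold change of -0.29 ± 0.16 (SE, adjusted p = 0.159). MX1 and MX2 fell together with Dex, by 0.31 and 1.90. IFI44 rose with Dex, and IFI44L was at 0.622 and 0.958 CPM (1.53 ± 0.63 SE, adjusted p = 0.061). In the OAS cluster on chromosome 12, OAS1 fell with Dex (-0.51 ± 0.086 SE, adjusted p = 9.63e-05), OAS2 rose (0.31 ± 0.066 SE, adjusted p = 0.00098) and OAS3 was at 0.028 ± 0.10 (SE, adjusted p = 0.846). The 4 IFIT genes on chromosome 10 lie within the listed span of LIPA on the other strand. With Dex in MM1S, IFIT1 was called, though not without Veh replicate 1 (-1.40) or Dex replicate 1 (-0.91), and IFIT2, IFIT3 and IFIT5 had log2 fold changes of -0.34 ± 0.79 (SE, adjusted p = 0.758), -0.37 ± 0.24 (SE, adjusted p = 0.237) and -0.21 ± 0.10 (SE, adjusted p = 0.105). With the replicate block IFIT5 was called as well (adjusted p = 0.0464). Across the 57 genes the TAK response in MM1R and the Dex response in MM1S, which share no library, had r = 0.113 and rho = 0.00985, with IFI44L at its fitted MM1R value.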

How the data were processed

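RNA sequencing of 16 libraries (2 per group, 8 groups) was analysed from the deposited table of read counts. Per the labels and the study's methods, the authors extracted total RNA with a miRNeasy kit and depleted ribosomal RNA; the submitters' processing notes name bcl2fastq 2.18.0.12, STAR 2.6.0, HTSeq 0.6.0, edgeR 3.28.1 and hg19. The strand setting and the annotation are not given in the sources used here. The deposited counts are whole, unnormalized read counts per gene, with positions on hg19 and a gene length.

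Library totals ran from 15707587 to 24796539 counts. All 16 libraries were fitted together (R 4.3.3, edgeR 4.0.16): filterByExpr by group, TMM factors, robust dispersions and a robust quasi-likelihood F test with 1 coefficient per group, 8 residual degrees of freedom and Benjamini-Hochberg adjustment over 14215 tested genes in each of 15 contrasts, at 0.05. CPM used the TMM-scaled library sizes, and RPKM is CPM over the table's gene length. The script was tested on simulated data. DESeq2 1.42.0, other scalings, no filter, a replicate block, only the groups compared, a fold minimum and leaving out each library were alternatives. Replicate numbers were not used to pair samples: the labels do not say that they mark a shared culture or day, and same-numbered libraries of a line correlated by 0.0371 to 0.383 in MM1S and 0.00712 to 0.116 in MM1R in their deviations from group means.

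The members, the role groups and the pathway and marker lists were chosen with earlier results of these data known. Any member could be named. Values in single libraries, though for many members not of every group, were given for the member with the highest mean CPM in each role group, for up to 5 called members at each end of the TAK response in either line and of the Dex response in MM1S, and for up to 5 called members with the smallest adjusted p in the line by TAK and TAK by Dex interactions, 27 members in all. OAS1, OASL, UBA7, IFIT3 and other members beside these were named after their values were seen. Promoter windows (RefSeq, GRCh38.p14) were used for letters only and not joined to hg19 positions. OAS2, OASL, IFIT2, ZNFX1, MX2, UBA7, USP18, PARP10, TRIM22, IFITM2 and LY6E had no window.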

Additional observations from a re-analysis of the deposited data

Results flagged for a closer look

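Differences between groups in the effect of the same treatment were flagged where the interaction term passed the adjusted threshold of the edgeR quasi-likelihood test. The response to TAK differed between MM1R and MM1S for 16 members, 28.1% of those tested against 4.16% of all tested genes. Among the 27 members chosen for values in single libraries, the response was larger in MM1R for MX1 (1.38 on the log2 scale), MX2 (2.49), XAF1 (2.44), IFI27 (4.01), IFIT1 (1.62), ZNFX1 (0.65), DTX3L (0.40), LAP3 (0.31) and TRIM25 (0.29). LAP3 and TRIM25 each lost this call in 11 of the 22 other settings and left-out libraries, DTX3L in 9 and IFIT1 in 7. DESeq2 gave no adjusted p for IFI27, and the calls of MX1, MX2, XAF1 and ZNFX1 held in all 22. The response to Dex differed between the lines for 23 members, 40.4% of those tested against 28.1% of all tested genes.

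In MM1S the effect of TAK differed with and without Dex for 16 members, 28.1% of those tested against 14.9% of all tested genes. Among the 27 members chosen for values in single libraries, the interaction was above 0 for MX2 (1.89), IFIT1 (1.74), TRIM5 (0.55), SAMD9L (0.52) and HERC5 (0.32). It was below 0 for IFI44 (-1.15), PARP10 (-0.65), DTX3L (-0.63), SHISA5 (-0.49) and TRIM25 (-0.37). Of the 22 other settings and left-out libraries, the call was lost in 14 for PARP10, 7 for HERC5 and 5 for TRIM5. It was lost in 4 each for IFIT1 and SAMD9L and in 1 for TRIM25. The calls of MX2, DTX3L, SHISA5 and IFI44 held in all 22. With 2 libraries per group, a library that stands apart within its group was not looked for.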

How the results depend on the processing

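Of 345 recomputed counts of called members, 321 stayed within 1.5 times their value, and 0 of 3559 recomputed log2 fold changes of named members reversed while called (117 lost and 74 gained a call, and 21 changed sign without a call in either fit). A required log2 change of 1 or more in size left 32 members for TAK, 6 for Dex and 31 for combo against Veh in MM1S, 2 for combo against TAK and 3 for the TAK by Dex interaction in MM1S, 7 between the lines in Veh, 6 for the line by TAK and 7 for the line by Dex interaction, fewer by construction. Fitting only the groups compared gave 7 for the TAK by Dex interaction in MM1S and 10 for the line by TAK interaction. Without the low-count filter 1 member, IFITM1, was called for Dex in MM1R and 1, again IFITM1, for the TAK by Dex interaction there. The replicate block gave 25 for the line by TAK interaction and moved no other count by over 1.5 times. By library size alone the members' median for Dex in MM1S was 0.021. RLE factors and DESeq2 moved no count by over 1.5 times. Leaving out 1 library at a time gave 6 to 22 for the TAK by Dex interaction in MM1S, 6 to 27 for the line by TAK interaction and 14 to 27 for the line by Dex interaction, while TAK against Veh stayed at 51 to 54 in MM1S and 53 to 56 in MM1R. The median for TAK in MM1S then ran from 1.26 to 1.41, and that for Dex in MM1S from -0.042 to 0.10. A group left with 1 library was assumed to vary like the others. The causes were not tested. Members with under 10 Veh reads (OASL, IFIT2, RSAD2, CMPK2 and IFITM2 in MM1S, IFIT2, IFI27 and IFI44L in MM1R) have folds limited by counting.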
